A study of Mus musculus with 28 samples.

Results

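The genes described here are 8 mouse genes whose products carry out meiotic recombination: Prdm9, Spo11, Dmc1, Meiob, Hfm1, Msh4, Msh5 and Mlh3. They are 8 of the 17923 genes listed in tables of H3K27ac peaks from spermatogenic cells. Every peak that the tables assign to one of them was taken, 127 of 471458 peaks, and a peak was called a promoter peak where it came within 1 kb of a transcription start listed under that gene alone, which 80 of the 127 did. H3K27ac, acetylation of lysine 27 of histone H3, marks active promoters and enhancers. It was profiled by ChIPmentation, a chromatin immunoprecipitation in which a transposase adds the sequencing adapters, in testicular germ cells of the C57BL/6 strain. The mice were wild type (WT) or had lost Scml2 by knockout (KO), a gene for a germline Polycomb protein. Thy1+ spermatogonia, which include the stem and progenitor cells, and c-Kit+ spermatogonia, which are differentiating, came from mice at postnatal day 7 in both genotypes. Pachytene spermatocytes (PS), the cells in which meiotic breaks are being repaired, and round spermatids (RS), which have finished meiosis, came from adult mice, and their H3K27ac is described in KO only, since WT PS and RS were not analysed here for this mark. The labels give sedimentation (STA-PUT) or magnetic sorting (MACS) as the means of isolation, without saying which was used for which cells. Each of the 6 H3K27ac groups had 2 libraries, and 16 input libraries without immunoprecipitation covered the 4 cell types in both genotypes. Comparisons of stage between adult cells and spermatogonia were therefore made among KO libraries, where cell type, age of the mice and possibly isolation cannot be told apart.

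Meiotic recombination begins when PRDM9, a histone methyltransferase with a zinc finger array, marks the sites at which SPO11 then cuts both DNA strands. The ends are resected and coated by single-strand binding proteins, MEIOB among them, and the strand exchange protein DMC1 carries them into the homologous chromosome. The joint molecules are unwound and stabilised by the helicase HFM1 and by the MSH4 and MSH5 heterodimer, and MLH3 takes part in cutting them to give crossovers. In the mouse testis these proteins act from leptotene to late pachytene, after the mitotic spermatogonial stages and before the spermatid stage. H3K27ac does not measure transcript or protein, so the values below concern the chromatin of these genes.

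The listed starts lay at chromosome 17 position 15563323 on the - strand (Prdm9), chromosome 2 position 172979842 on the + strand (Spo11), chromosome 15 position 79605109 on the - strand (Dmc1) and chromosome 17 position 24804382 on the + strand (Meiob). Those of Hfm1 and Msh4 were chromosome 5 position 106925890 and chromosome 3 position 153906138, those of Msh5 chromosome 17 positions 35046723 and 35046606, and that of Mlh3 chromosome 12 position 85270564, all on the - strand of mm10. RefSeq promoter sequences (250 bases before to 50 after a start, GRCm38.p6) were held for 6 of the 8 genes; Spo11 and Meiob had no entry. A window is shown for each of 5 genes, overlapped by H3K27ac peaks in 7 to 12 of the 12 libraries. The window of Msh4, overlapped in 3 libraries, is not shown. Capitals mark matches on either strand to letters associated with regulators of meiotic genes: GGCGGGAA (E2F6), CNCCTCAG (STRA8), CAACNG (MYB), CCAAT (the CCAAT box), CACGTG (E-box) and TGACGTCA (CRE). The windows are chr17:15564305-15564604 (Prdm9, around a second RefSeq start at 15564354), chr15:79605060-79605359 (Dmc1), chr5:106925841-106926140 (Hfm1), chr17:35046573-35046872 (Msh5) and chr12:85270550-85270849 (Mlh3), each printed 5′ to 3′ on the - strand.
Prdm9: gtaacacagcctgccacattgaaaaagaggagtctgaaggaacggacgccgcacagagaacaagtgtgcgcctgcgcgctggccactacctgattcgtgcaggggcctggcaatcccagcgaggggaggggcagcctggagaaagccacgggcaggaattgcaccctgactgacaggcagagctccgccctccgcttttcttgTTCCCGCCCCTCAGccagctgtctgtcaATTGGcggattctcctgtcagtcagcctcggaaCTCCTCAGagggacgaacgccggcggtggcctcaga
Dmc1: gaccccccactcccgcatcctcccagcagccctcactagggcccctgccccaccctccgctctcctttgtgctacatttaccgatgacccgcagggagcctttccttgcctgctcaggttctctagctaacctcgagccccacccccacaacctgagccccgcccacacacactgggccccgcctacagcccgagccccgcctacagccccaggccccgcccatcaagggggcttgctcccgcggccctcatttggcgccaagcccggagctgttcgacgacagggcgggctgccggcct
Hfm1: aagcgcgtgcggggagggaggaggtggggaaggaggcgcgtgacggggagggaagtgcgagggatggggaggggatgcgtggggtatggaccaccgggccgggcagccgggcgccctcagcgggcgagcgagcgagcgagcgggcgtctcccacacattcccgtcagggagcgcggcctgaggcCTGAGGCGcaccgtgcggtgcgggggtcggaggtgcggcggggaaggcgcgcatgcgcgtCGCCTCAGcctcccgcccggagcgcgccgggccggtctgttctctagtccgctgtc
Msh5: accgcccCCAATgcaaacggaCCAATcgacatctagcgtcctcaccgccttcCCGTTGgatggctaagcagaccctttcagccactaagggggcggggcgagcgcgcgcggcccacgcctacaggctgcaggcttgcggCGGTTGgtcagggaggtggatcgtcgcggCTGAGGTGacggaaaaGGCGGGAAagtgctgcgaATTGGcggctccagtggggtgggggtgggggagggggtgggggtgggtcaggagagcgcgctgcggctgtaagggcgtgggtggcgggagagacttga
Mlh3: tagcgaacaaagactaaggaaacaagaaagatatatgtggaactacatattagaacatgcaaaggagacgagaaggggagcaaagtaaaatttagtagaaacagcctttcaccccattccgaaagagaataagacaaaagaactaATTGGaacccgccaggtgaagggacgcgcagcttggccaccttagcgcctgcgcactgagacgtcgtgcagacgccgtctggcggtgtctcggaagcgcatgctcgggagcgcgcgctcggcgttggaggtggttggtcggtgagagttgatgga

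GGCGGGAA was found in 2 of the 6 matched genes, Prdm9 and Msh5, and in 2.19% of 32851 RefSeq promoters of the same length. Genes with more than a single window (Prdm9 and Mlh3) counted where any window matched, while the shares count each promoter. CNCCTCAG was found in 3 of 6, 2 times each in the Hfm1 and the second Prdm9 window and once in Msh5 (7.94% of all promoters). In Prdm9 a CNCCTCAG match shared letters with the GGCGGGAA match, so those 2 are not separate stretches. CCAAT occurred in Prdm9, Msh5 and Mlh3 (37.4% of all promoters), and CAACNG in Msh5 and in the window of the downstream Prdm9 start (35.0%). The E-box letters and the CRE letters were in none of the 6 (7.15% and 1.79% of all promoters). The Dmc1 window held no match, and neither did the window of the RefSeq start held for Msh4, which lies within the gene at 153904891. The dinucleotide CG, whose density sets CpG islands apart, occurred 41 times in the Hfm1 window, 27 times in Msh5, 22 in Mlh3, 18 each in Dmc1 and the second Prdm9 window, and 6 in Msh4, against a median of 7 over all promoters. Motif matches are letters in a window and were not tested for binding.

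Peak numbers per library ran from 17877 to 73316 for H3K27ac and from 359 to 1192 for the inputs. The value used throughout is fold enrichment, the height of the stacked reads at a peak's summit over a background height, each plus 1, with a single background height per library. Read depth is not known. The background height, a stand-in for it, ranged from 0.564 to 1.11 in spermatogonia and from 0.849 to 1.62 in adult cells, and the lowest fold enrichment at which a peak was called ranged from 3.05 to 3.84. An uncalled promoter therefore had a value below about that level, not a value of 0. Promoters of pachytene markers were called in both PS and both RS libraries for 7 of 7 genes. Piwil1, Ldhc and Pgk2 were uncalled in all 8 spermatogonial libraries. The other 4 (Sycp3, Sycp1, Hspa2 and Mybl1) were each called in at least 1 library of every spermatogonial group. Of 6 listed spermatid markers, all were called in both RS and both PS libraries, with summed fold enrichments of 105 to 119 in RS and 60.2 to 96.5 in PS, so these promoters did not separate the adult groups by presence of a call. Of 8 markers of Thy1+ cells, 3 were called in both Thy1+ libraries of each genotype and 5 in both PS libraries, and of 5 markers of c-Kit+ cells 1, Kit, was called in both c-Kit+ libraries of each genotype. Promoters of somatic testis cells (Sertoli, Leydig and myoid genes) were called for 6 of 8 genes in both PS libraries, with summed fold enrichments of 50.7 to 66.6, against 14.1 to 16.0 in RS, 5.83 to 34.0 in KO spermatogonia and 15.1 to 32.5 in WT spermatogonia. Cyp17a1 was uncalled in every group.

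All 8 recombination gene promoters carried an H3K27ac peak in all 4 adult KO libraries, against 67.1% of all listed promoters. Over genes and libraries, 32 of 32 promoters were called in adult KO cells, 21 of 32 in KO spermatogonia, 17 of 32 in WT spermatogonia and 0 of 128 in the inputs; over all listed promoters the shares were 74.4%, 61.6%, 58.4% and 0.106%. In spermatogonia the 8 genes were thus called about as often as promoters in general, and in adult cells more often. None of the 8 was called in at least 1 input (0.312% of all listed promoters). Prdm9 and Mlh3 were called in all 12 H3K27ac libraries (48.8% of all listed promoters), and Msh5 in 11. None of the 8 was called in every adult library and in no spermatogonial library, a pattern found in 5.82% of listed promoters.

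**Figure D1:**
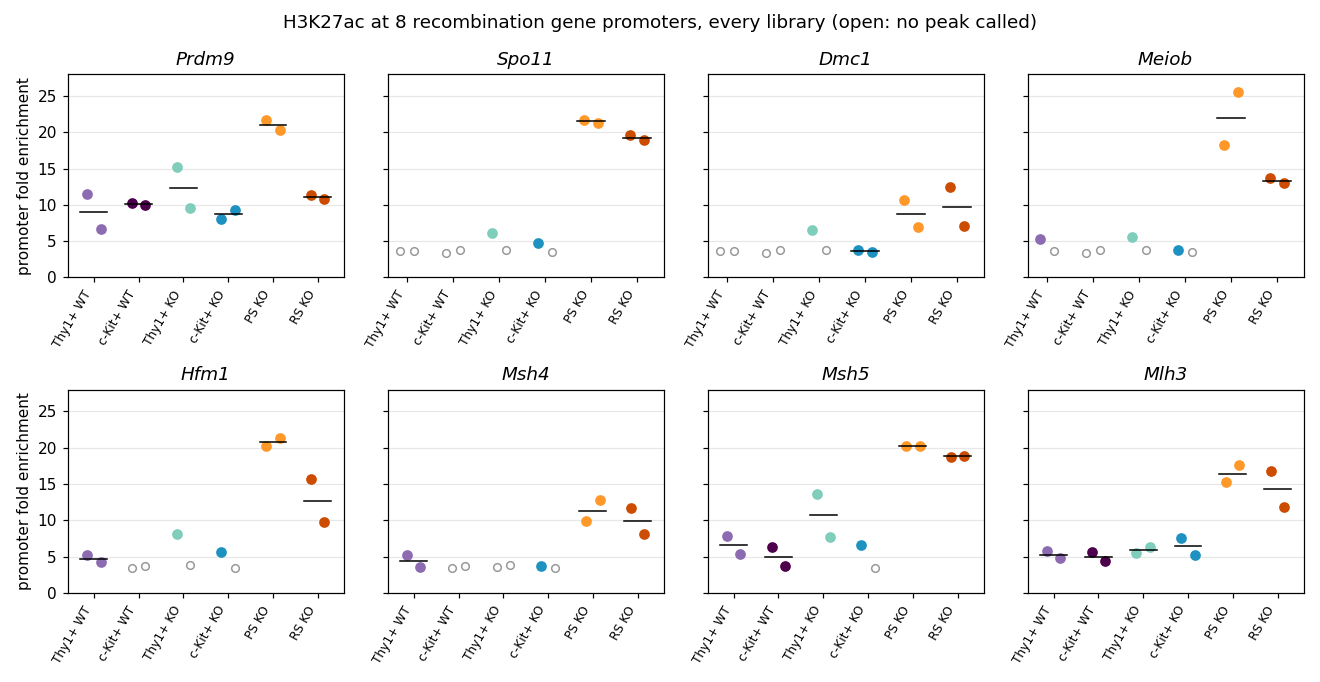
Promoter fold enrichment (y axis) of the 8 genes in the 6 H3K27ac groups (x axis). Filled points are libraries with a promoter peak, replicate 1 on the left, open grey points are libraries without one, drawn at the lowest fold enrichment of that library, and lines are means where both libraries had a peak. In 7 genes all 4 adult KO points lie above all 8 spermatogonial points, and Prdm9 is the exception.

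The level of H3K27ac separated adult from spermatogonial cells at 7 of the 8 promoters, all but Prdm9. With uncalled libraries placed at the lowest fold enrichment of the library, every adult KO library lay above every KO spermatogonial library at these 7, a pattern shown by 21.2% of all listed promoters and by 31.6% of the 12020 that were called in all 4 adult libraries. The 7 also lay above all 8 spermatogonial libraries of both genotypes (21.0% of listed promoters). The opposite order, every KO spermatogonial library above every adult library, held for none of the 8 (20.1% of listed promoters). Depth moved with this order, since the adult libraries had the higher background heights on average. The replicate 1 libraries of Thy1+ KO and c-Kit+ KO had background heights of 0.975 and 1.11, above those of PS KO replicate 2 and RS KO replicate 2 at 0.876 and 0.849. Between these 4 libraries alone the same 7 promoters were higher in the adult cells, against 23.2% of listed promoters. The order over all KO libraries already fixes this result for the 7, so it is no separate check on depth. Background height is not read depth, and the part of depth in this order was not tested. Somatic marker sums, given above, were higher in PS than in spermatogonia and lower in RS than in PS, and their part in the order was not tested.

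Prdm9, which chooses the sites of the breaks, was the gene with the most even H3K27ac across the libraries. Its fold enrichment was 11.5 and 6.64 in the Thy1+ WT libraries, 10.3 and 9.92 in c-Kit+ WT, 15.2 and 9.59 in Thy1+ KO and 8.04 and 9.33 in c-Kit+ KO (replicate 1 first here and below). In adult KO cells it was 21.7 and 20.3 in PS (mean 21.0 ± 1.04, SD, n = 2) and 11.3 and 10.8 in RS (11.1 ± 0.371, SD, n = 2). Only the PS libraries lay above all others, while RS overlapped the spermatogonia. Ranked among the called promoters of each library, the Prdm9 peak stood above a median of 51.5% of them in spermatogonia and 48.5% in adult cells. The adult median joins unlike groups, with ranks of 68.0% and 57.3% in PS and 35.8% and 39.8% in RS. The other 7 genes stood lower in spermatogonia than in adult cells by this rank, with Msh5 for example at medians of 22.3% and 64.3%. The peak lay upstream of the listed start: its summit was between 866 and 1359 bp upstream, and in all 12 libraries within 500 bp of the second RefSeq start, which is 1031 bp upstream of the listed one. The second window, shown above, was covered over its whole length by peaks in 12 of 12 libraries. With a promoter window of 500 bp, Prdm9 was called in 0 of 4 WT spermatogonial libraries, since the WT peaks end farther upstream. It was called in 3 of 4 KO spermatogonial libraries and in all 4 adult ones. Where peak and window had to share 50% of the shorter, it was called in 0 WT, 2 KO spermatogonial and 1 adult library. Adult calls over the 8 genes were then 29 of 32.

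Spo11, the transesterase that makes the breaks, showed the widest gap between adult and spermatogonial cells. WT spermatogonia had no Spo11 promoter peak in any of 4 libraries. In KO spermatogonia it was called at 6.08 in Thy1+ KO replicate 1 and at 4.73 in c-Kit+ KO replicate 1, the 2 spermatogonial libraries with the highest background heights, and in neither replicate 2. PS KO gave 21.7 and 21.3 and RS KO 19.6 and 18.9, so the lowest adult value, 18.9, stood against a highest spermatogonial value of 6.08. The highest peak of each adult library lay within 317 bp upstream and 765 bp downstream of the start, and these peaks were between 747 and 1073 bp long, against 305 and 490 bp for the 2 spermatogonial peaks. The nearest other gene in the RefSeq table, Gm52538, starts 722 bp upstream on the opposite strand, outside the extent of the promoter peaks.

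Dmc1, the meiosis-specific strand exchange protein, had the lowest median adult H3K27ac of the 8 genes and, of the 7 in which the groups did not overlap, the narrowest gap to spermatogonia. It was uncalled in the 4 WT spermatogonial libraries and in Thy1+ KO replicate 2. The called spermatogonial values were 6.58 in Thy1+ KO replicate 1 and 3.78 and 3.50 in c-Kit+ KO. PS KO gave 10.7 and 6.93 and RS KO 12.5 and 7.03, and in both groups replicate 2, with the lower background height, was the lower. The lowest adult value, 6.93, was close to the highest spermatogonial one, 6.58, and the Thy1+ KO replicate 1 peak was as long (1328 bp) as the shortest adult peak (1319 bp). Its adult rank was also the lowest of the 8, above a median of 25.1% of called promoters.

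Meiob, a single-strand binding protein that works with SPATA22, was called in 3 of 8 spermatogonial libraries, at 5.24 in Thy1+ WT replicate 1, 5.57 in Thy1+ KO replicate 1 and 3.78 in c-Kit+ KO replicate 1. PS KO gave 18.3 and 25.6, the latter the highest value of any of the 8 promoters in any library. RS KO gave 13.7 and 13.0. The spermatogonial peaks were at most 311 bp long and the highest peak of each adult library at least 1518 bp, and the adult summits lay between 335 and 567 bp upstream of the start.

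Hfm1, the helicase needed for stable joint molecules, was called in both Thy1+ WT libraries at 5.24 and 4.22, in neither c-Kit+ WT library, and in replicate 1 of each KO spermatogonial group at 8.10 (Thy1+) and 5.67 (c-Kit+). PS KO gave 20.2 and 21.3. RS KO gave 15.6 and 9.74, whose spread was wider than that of PS. Its adult peaks, between 1662 and 2154 bp long, extended mainly upstream, as the plot of peak extents shows, over the CG-rich window printed above.

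Msh4 and Msh5, the partners of 1 heterodimer, differed from each other at their promoters. Msh4 was called in both Thy1+ WT libraries, at 5.24 and 3.62, and at 3.78 in c-Kit+ KO replicate 1, and in none of the other 5 spermatogonial libraries. PS KO gave 9.91 and 12.8 and RS KO 11.7 and 8.11. Msh5 was called in 7 of 8 spermatogonial libraries: 7.86 and 5.43 in Thy1+ WT, 6.27 and 3.72 in c-Kit+ WT, 13.7 and 7.67 in Thy1+ KO and 6.62 in c-Kit+ KO replicate 1. PS KO gave 20.2 and 20.3 and RS KO 18.8 and 18.9, the tightest replicates of the 8 genes. Msh5 lay above Msh4 in every adult library by these values, and in every spermatogonial library in which either was called. In the mean absolute difference of log2 fold enrichment over the 12 libraries, Msh4 was nearer to Dmc1 (0.225) than to Msh5 (0.783), and Msh5 nearest to Mlh3 (0.396). The smallest such difference among the 28 pairs was 0.197, between Meiob and Hfm1, and the largest 1.16, between Prdm9 and Dmc1. Uncalled libraries entered these differences at the lowest fold enrichment of the library. Small differences, such as those of Msh4 with Dmc1 and of Meiob with Hfm1, therefore rest in part on shared absence of a peak. The differences carry no test.

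Mlh3, the endonuclease subunit that resolves crossovers, was called in every library. Its spermatogonial values lay between 4.34 and 7.57: 5.76 and 4.83 in Thy1+ WT, 5.70 and 4.34 in c-Kit+ WT, 5.57 and 6.40 in Thy1+ KO and 7.57 and 5.25 in c-Kit+ KO. PS KO gave 15.3 and 17.6 and RS KO 16.8 and 11.9. All 4 adult values were above all 8 spermatogonial ones, and the highest peak of each adult library, at least 1153 bp long, was longer than the longest spermatogonial peak of 578 bp.

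**Figure D2:**
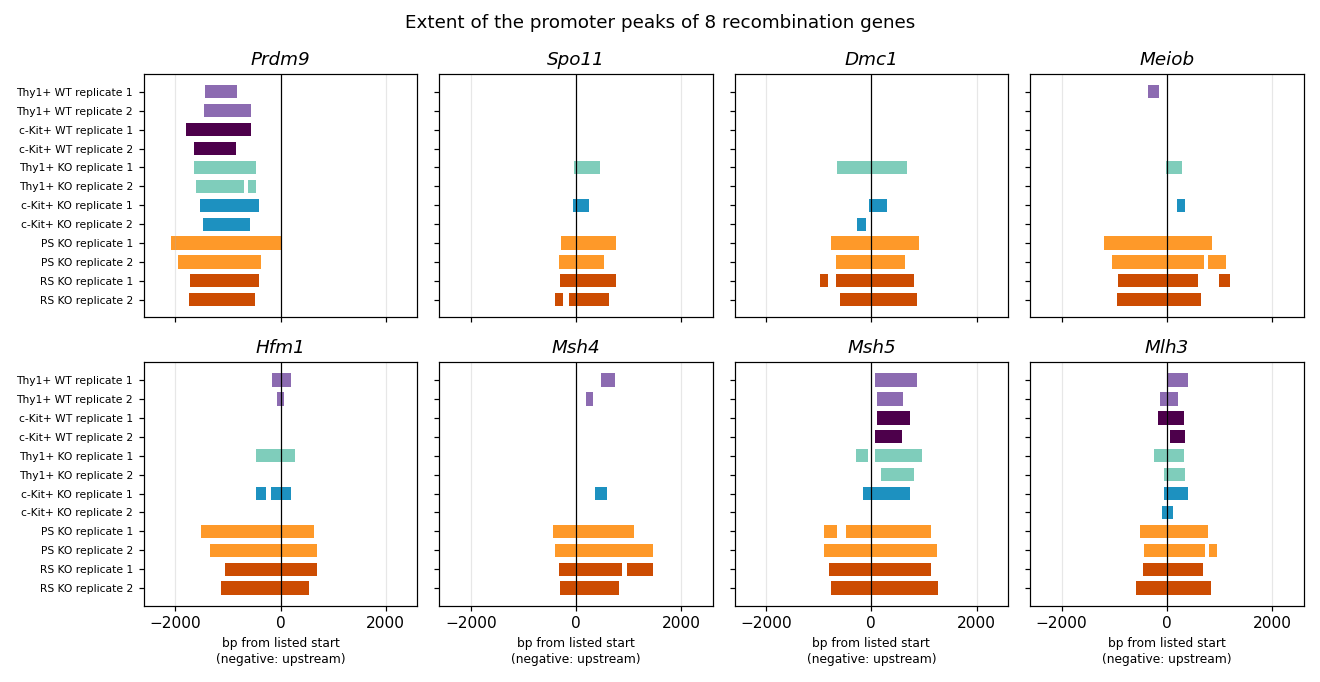
Extent of the promoter peaks of the 8 genes in each H3K27ac library (rows), in bp from the most upstream listed start (x axis, negative upstream, vertical line at the start); colours mark the 6 groups. In the 7 genes other than Prdm9 the highest adult KO peak spans the start in each library. The Prdm9 bars lie upstream of the listed start in 11 of 12 libraries and reach it in PS KO replicate 1, and the Msh4 bars in spermatogonia lie only downstream.

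Lengths here and above are those of the highest promoter peak of a gene in a library, which leaves out 10 of the 80 promoter peaks, some of them short and in adult cells. Over the 8 genes, these peaks in adult libraries were 747 to 2155 bp long (median 1530, n = 32) and in spermatogonial libraries 145 to 1328 bp (median 492, n = 38). Over all listed promoters the medians were 1742 bp in adult KO libraries and 952 bp in spermatogonia, so peaks were shorter in spermatogonia in general and the genes described here were below the general median in both. In 6 genes the shortest such adult peak was longer than the longest spermatogonial one, by 257 bp (Spo11) to 1207 bp (Meiob), while in Prdm9 and Dmc1 the lengths overlapped. A caller reports a shorter interval where less of a weak peak is above its limit, and the part of depth in these lengths was not tested.

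Regions called in every library compared were also tested with limma on the log2 scale, after centring each library on its median region, so that changes are relative to that median. Nothing in the labels says that replicates came from separate animals, so p-values may measure technical spread only. Between adult and spermatogonial KO libraries 10287 regions were tested and 32.3% passed an adjusted p of 0.05, 9.85% higher and 22.4% lower in adult cells. Only Prdm9 and Mlh3 were called in all 8 libraries and could be tested. The Mlh3 promoter region (85269611 to 85271139) rose by 0.64 relative to the median region (SE 0.212, limma adjusted p = 0.0343, 95% interval 0.18 to 1.09), on top of a median that was itself 0.68 higher in adult libraries. Prdm9 did not pass, at a log2 change of -0.10 (SE 0.184, limma adjusted p = 0.706, interval -0.50 to 0.30), and its value was 0.58 without centring. The Mlh3 call was lost when uncalled libraries were filled with their lowest value, over more regions (0.44, limma adjusted p = 0.136), and when any of PS KO replicate 2, RS KO replicate 1, RS KO replicate 2 or Thy1+ KO replicate 1 was left out (limma adjusted p between 0.0533 and 0.0859).

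The other 6 genes lacked a peak in at least 1 KO spermatogonial library and were not tested in this comparison. With imputed values they would enter through the adult libraries in which they are high, so no test of them is given.

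In the step from c-Kit+ spermatogonia to PS, 12501 regions were tested and 31.9% passed, 6.83% higher and 25.1% lower in PS. Of the 3 genes called in these 4 libraries, none passed: the log2 change was 0.16 (interval -0.34 to 0.67) at Dmc1, 0.30 (-0.11 to 0.72) at Mlh3 and 0.20 (-0.28 to 0.68) at Prdm9. The library medians were on average 1.08 higher in PS before centring. Without centring all 3 passed (1.24 at Dmc1, 1.38 at Mlh3 and 1.28 at Prdm9). So did 8940 of the 12501 regions, 8841 of them higher in PS. The median uncentred change over the 12501 regions was 0.91, so on that scale all 3 rose by more than this median.

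Between PS and RS, all 8 promoters could be tested. Both PS libraries lay above both RS libraries at 5 promoters (Prdm9, Spo11, Meiob, Hfm1 and Msh5), against 46.5% of all listed promoters, and the reverse held at none (9.72%). Of 21329 regions tested, 20.2% passed, 12.4% higher and 7.79% lower in RS. Prdm9 passed, falling by 0.73 from PS to RS (SE 0.199, limma adjusted p = 0.0313, interval -1.18 to -0.28), and was the only promoter of the 8 to do so. Hfm1 (-0.56, SE 0.209, limma adjusted p = 0.0923) and Meiob (-0.51, SE 0.217, limma adjusted p = 0.133) did not. Both passed without centring (limma adjusted p = 0.0310 and 0.0371), where 5850 of the 21329 regions passed, 3630 of them lower in RS. At Spo11, Dmc1, Msh4, Msh5 and Mlh3 the change lay between -0.02 and 0.32, with intervals from -0.48 to 0.94. The median over the 8 was -0.02, and over all tested regions -0.08. The Prdm9 call was lost under quantile normalization (limma adjusted p = 0.0547), with stricter peaks (limma adjusted p = 0.0575), and without either RS library (limma adjusted p = 0.289 and 0.301), when 0 of 21329 regions passed in either case. Somatic marker promoters were higher in PS than in RS, as given above, and their part in the difference at Prdm9 was not tested.

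**Figure D3:**
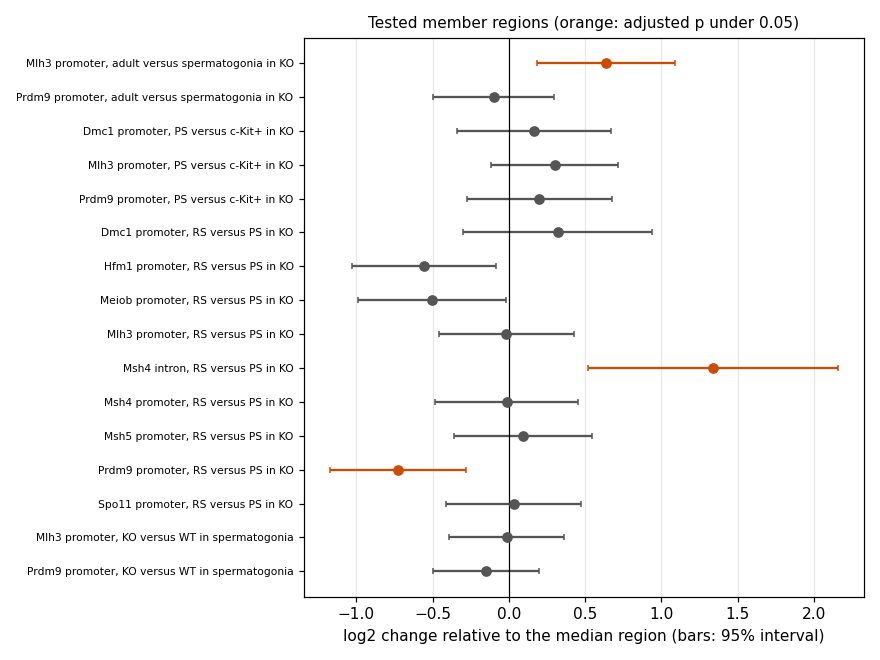
Log2 change in fold enrichment relative to the median region (x axis) for each region of the 8 genes that was called in every library of a comparison (rows), with 95% intervals from limma. Orange marks an adjusted p under 0.05: the Mlh3 promoter in adult cells against spermatogonia, and the Prdm9 promoter and the Msh4 intron in RS against PS. The Msh4 intron was singled out by its height, which was greatest in RS.

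Away from promoters the 8 genes held 47 peaks, 42 of them (89.4%) in adult KO libraries, 4 in KO and 1 in WT spermatogonia. Adult KO libraries held 68.3% of the 282817 such peaks of all listed genes. Hfm1 had 22, Msh4 10, Spo11 8, Mlh3 4, and Dmc1, Meiob and Msh5 1 each, while Prdm9 had none. The strongest lay in an intron of Msh4, in a block from 153863581 to 153867362 on chromosome 3, 38776 to 42557 bp downstream of the start, within a gene of 48998 bp. Its highest fold enrichment was 13.0 and 5.33 in PS and reached 19.6 and 17.3 in RS, with no peak in any of the 8 spermatogonial libraries and none assigned to Msh4 in the 16 inputs. In RS it exceeded the Msh4 promoter of the same library (11.7 and 8.11), and in PS it did so in replicate 1 (9.91) but not in replicate 2 (12.8). The RefSeq table lists a 125 bp pseudogene, Gm24395, inside the block, so the peak need not belong to Msh4 by anything but position.

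The region at this intron (153863581 to 153865726) rose by 1.34 from PS to RS relative to the median region (SE 0.364, limma adjusted p = 0.0309, interval 0.52 to 2.16), while the Msh4 promoter changed by -0.01 (limma adjusted p = 0.972, interval -0.48 to 0.45). The difference between the 2 changes was not tested. The intron was singled out as the highest non-promoter peak of Msh4, and that height was in RS. Its p-value for a rise in RS thus rests on the values that chose it and gives no separate support. Its call was lost without either RS library (limma adjusted p = 0.372 and 0.401), without PS KO replicate 2 (log2 change 0.66, limma adjusted p = 0.0521), and with uncalled libraries filled in (1.14, limma adjusted p = 0.117). The 2 PS libraries differed more than 2-fold there.

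**Figure D4:**
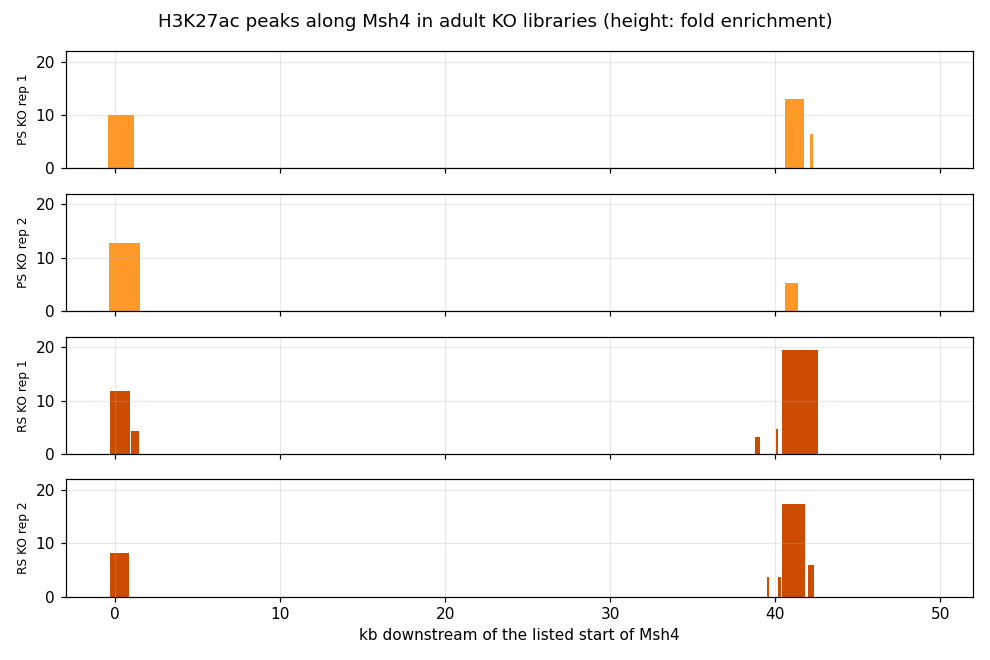
Peaks assigned to Msh4 in the 4 adult KO libraries (rows), by distance from the listed start in kb (x axis) and fold enrichment (y axis); each bar spans 1 peak. Besides the promoter peak near 0, a block between 38776 and 42557 bp is present in all 4, at 19.6 and 17.3 in RS and at 13.0 and 5.33 in PS.

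The other peaks were low. At Hfm1 the highest, 6.49 in RS KO replicate 2, was one of a set between 3929 and 5616 bp downstream of the start, called in both RS libraries and in PS KO replicate 1. A pair of upstream peaks 5770 to 6717 bp from the start appeared in both RS libraries and in no other, and intergenic peaks 98119 to 123730 bp downstream of the start in both PS libraries and once in Thy1+ KO replicate 1. At Spo11 the highest was 5.41, upstream by 2723 bp in RS KO replicate 2, and the 7 upstream peaks came from PS KO replicate 1, both RS libraries and Thy1+ KO replicate 1. The highest at Mlh3 was 5.08 in an intron in RS KO replicate 1. The single peaks of Dmc1 (3.20), Meiob (3.73) and Msh5 (3.91) were near the lowest value a library could call. Of 3 input peaks assigned to Hfm1, all were intergenic and at least 145930 bp from the start.

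Loss of Scml2 was examined in spermatogonia at these promoters. All 4 KO libraries lay above all 4 WT libraries at none of the 8 genes (1.31% of listed promoters). Of 9585 regions called in all 8 spermatogonial libraries, 0 passed the limma threshold (0.0%; 502 had an unadjusted p under 0.05). Prdm9 changed by -0.15 in KO relative to the median region (SE 0.168, limma adjusted p = 0.976, interval -0.50 to 0.20). Mlh3 changed by -0.01 (SE 0.183, limma adjusted p = 0.996, interval -0.39 to 0.36). Without centring both values were above 0 (0.12 and 0.26), where the library medians were on average 0.27 higher in KO. The remaining 6 could not be tested in every library. Spo11 and Dmc1 were called in 2 and 3 of 4 KO libraries and in 0 of 4 WT libraries, and 1.65% of listed promoters were called in at least 2 KO and no WT library. With the same number of strongest peaks in each library, or with stricter peaks, each was called in 1 of 4 KO libraries. The KO libraries with the most calls, c-Kit+ KO replicate 1 (8 of 8 genes) and Thy1+ KO replicate 1 (7 of 8), had the highest background heights of the spermatogonia, and their replicate 2 libraries had 3 calls each. WT libraries had 6 and 5 calls in Thy1+ and 3 and 3 in c-Kit+ cells. The part of depth in these calls was not tested.

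Between Thy1+ and c-Kit+ spermatogonia, 1.09% of 9585 regions passed (limma, genotype as a covariate), and neither tested gene did. The log2 change toward c-Kit+ cells was 0.14 (interval -0.21 to 0.48, limma adjusted p = 0.771) at Prdm9 and 0.27 (interval -0.11 to 0.65, limma adjusted p = 0.543) at Mlh3. In WT, Hfm1 and Msh4 were called in both Thy1+ libraries and in neither c-Kit+ library (0.67% of listed promoters). Their values there, 3.62 to 5.24, were near the lowest a library could call, and none of the 4 was called with stricter peaks.

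A wider list of recombination genes was read beside the 8. Of 54 symbols, older names included, 36 were listed, and 32 of these were called in all 4 adult KO libraries, 22 in all 12 libraries and 12 above every KO spermatogonial library in every adult library, against 67.1%, 48.8% and 21.2% of all listed promoters. End processing genes, the nucleases and sensors that trim and signal breaks and also act in mitotic cells (Mre11a, Rad50, Nbn, Rbbp8, Exo1 and Atm), were called in all 12 libraries, 6 of 6, and none of them met the last rule. Ccnb1ip1, Mcmdc2, Mei1 and Spata22 were called in all 4 adult libraries and in no spermatogonial library (4 of 36, against 5.82% of listed promoters). Ccnb1ip1 was low, at 6.86 and 5.33 in PS and 4.69 and 5.95 in RS. Mei1 was at 6.10 and 3.20 in PS and 5.08 and 4.87 in RS. Its value of 3.20 was the lowest called in PS KO replicate 2, and Mei1 did not meet the rule of adult above KO spermatogonia. Spata22, whose product pairs with MEIOB, was at 9.15 and 10.7 in PS and 9.00 and 8.66 in RS, and Mcmdc2, an MCM-related factor of strand exchange, was at 17.2 and 24.5 in PS and 18.4 and 11.9 in RS. In the test of adult against spermatogonial KO cells, 25 of the 36 had a promoter peak in a tested region. Their median change was 0.09, against -0.12 over all regions. Of the 25, 4 passed as higher and 1 as lower in adult cells, against 9.85% and 22.4% of all 10287 regions. Cdk2, a kinase found at crossover sites, rose by 0.71 (limma adjusted p = 0.00258) and Cntd1 by 0.57 (limma adjusted p = 0.0125). Psmc3ip rose by 0.44 (limma adjusted p = 0.0324) and, named beyond the rule of 3 per direction, Slx4 by 0.42 (limma adjusted p = 0.0489). The merged region of Slx4 reaches beyond its promoter window. In that window a peak was called in 3 of 4 adult and 0 of 4 spermatogonial KO libraries, so the change is not one of the promoter alone. The same holds for the tested region of Hsf2bp, whose promoter was called in 1 of 4 KO spermatogonial libraries. None of the 4 genes that rose passed with uncalled libraries filled in (limma adjusted p between 0.0707 and 0.373). Cdk2 and Cntd1 passed whichever 1 library was left out. Psmc3ip did not pass without PS KO replicate 1, either RS library or either c-Kit+ KO library (limma adjusted p between 0.0625 and 0.104), and Slx4 passed without PS KO replicate 2 but not when any other library was left out (0.0510 to 0.144). Mnd1, the partner of PSMC3IP in strand invasion, fell by 0.77 (limma adjusted p = 0.00374), with 7.24 and 4.80 in PS against 8.61 and 5.76 in Thy1+ KO and 6.15 and 4.66 in c-Kit+ KO. Its uncentred change was only -0.09 (limma adjusted p = 0.810), and it did not pass under quantile normalization (limma adjusted p = 0.124), so the fall is one relative to a median that was 0.68 higher in adult libraries.

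Promoters with the most similar H3K27ac over the 12 libraries were found by the mean absolute difference in log2 fold enrichment, uncalled libraries at their lowest value. The nearest 2 were Myo6 and Zfp395 for Prdm9 (0.15 each), Mns1 and Slc25a35 for Spo11 (0.08 and 0.09), Atoh8 and Cnih2 for Dmc1 (0.07 and 0.09), and Spag5 and Slc25a31 for Meiob (0.08 each). For Hfm1 they were Them6 and Rfx2 (0.10 and 0.11), for Msh4 Aplp1 and Gna15 (0.07 and 0.08), for Msh5 Lmln and 4930503L19Rik (0.11 each) and for Mlh3 Bbs4 and Oplah (0.19 each). The median difference of all listed promoters from the 8 genes lay between 0.64 and 1.00. Genes uncalled in many libraries share their imputed values there, so the smallest differences, at Msh4 and Dmc1, rest in part on shared absence of a peak.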

How the data were processed

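Each library had its own deposited peak table. Bowtie, MACS2 and the build mm10 are named without versions per the submitters' processing notes, and their settings are not given in the sources used here. The deposited columns, per the file headers, are a pileup height (signal) at a summit, a fold enrichment (a ratio to background), −log10 p and −log10 q values, and the nearest transcript. Fold enrichment equalled (height + 1) over (background + 1) with a background that varied within a library by a factor of at most 1.00002, so it carried no local or input control. Where a peak had several summits the highest was used, and peaks on the mitochondrial chromosome were dropped. Peaks listed under several genes (Msh4 1, Msh5 7, Mlh3 3) were not assigned. For each test, peaks overlapping by at least 1 bp were merged, regions called in every library compared were kept, log2 fold enrichment was centred on the median of each library, and limma 3.58.1 (R 4.3.3) was fitted to the groups compared, with Benjamini-Hochberg adjustment over all regions and a threshold of 0.05. The script was tested on simulated data. Promoters of all listed genes, read the same way, give the background shares. Stricter peaks had a −log10 q of at least 5.

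Groups and replicate numbers came from the sample titles. Replicate numbers recur in all groups, and the labels do not say that they mark a shared animal or day, so they were not treated as pairs. After centring, the correlation of deviations of same-numbered libraries was between -0.00791 and 0.159, under 0.1 in at least 1 pair of each fit. Centring removes any shift in level that such libraries share. In each H3K27ac group replicate 1 had the higher background height. Fits with replicate number as a block are given at the end. The genes and lists were chosen with earlier results of these data known. All 8 genes are named; of the wider list, up to 3 genes per direction with the largest passing change between adult cells and spermatogonia, and up to 5 called only in adult cells; of other peaks, the highest of each gene; and the 2 nearest promoters by level for each gene.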

Additional observations from a re-analysis of the deposited data

How the results depend on the processing

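The order of the 7 promoters needs no model; the tests depend more on settings. Counts of passing regions moved by over 1.5 times in these cases. With uncalled libraries filled in, 9575 regions passed between adult cells and spermatogonia, 7022 between RS and PS and 805 between c-Kit+ and Thy1+ cells, over more regions tested. Between PS and c-Kit+ cells 784 passed under quantile normalization, 8940 without centring and 2013 with stricter peaks. With stricter peaks 1982 passed between RS and PS and 18 between c-Kit+ and Thy1+ cells, where 0 passed without centring (limma) and 160 with regions overlapping input peaks removed. With stricter peaks WT spermatogonia had 8 promoter calls in place of 17. Leaving out 1 library at a time gave 2404 to 4380 regions between PS and c-Kit+ cells, lowest without PS KO replicate 2, 0 to 6667 between RS and PS, 0 without either RS library and highest without PS KO replicate 1, and 4 to 142 between c-Kit+ and Thy1+ cells, lowest without Thy1+ WT replicate 1 and 28, 32, 36 and 37 without c-Kit+ KO replicate 1, c-Kit+ WT replicate 2, c-Kit+ KO replicate 2 and Thy1+ KO replicate 1. A lone library of a group is assumed to vary like the other groups. The causes were not tested.

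The sign turned as follows, at values that did not pass before or after the turn. Without centring, KO against WT gave 0.26 at Mlh3 and 0.12 at Prdm9, adult against spermatogonial cells 0.58 at Prdm9, RS against PS -0.10 at Msh5 and -0.16 at Spo11, and c-Kit+ against Thy1+ -0.0031 at Mlh3 and -0.14 at Prdm9. Under quantile normalization Mlh3 gave 0.082 (KO against WT) and 0.10 (RS against PS), and Msh4 0.0055 (RS against PS). From PS to RS, stricter peaks gave 0.14 at Mlh3 and 0.15 at Msh4, an overlap of 50% of the shorter peak 0.0074 at Mlh3 and 0.012 at Msh4, and filling in uncalled libraries -0.10 at Msh5 and -0.16 at Spo11. Leaving out 1 library gave ranges across 0 for KO against WT at Mlh3 (-0.14 to 0.24), for PS against c-Kit+ cells at Dmc1 (-0.18 to 0.51) and Prdm9 (-0.088 to 0.49), for adult against spermatogonial cells at Prdm9 (-0.22 to 0.020), and for RS against PS at Dmc1 (-0.027 to 0.66), Mlh3 (-0.12 to 0.088), Msh4 (-0.16 to 0.14), Msh5 (-0.058 to 0.24) and Spo11 (-0.089 to 0.15). From PS to RS, Meiob passed without PS KO replicate 1 (-0.71, limma adjusted p = 0.0206), as did Dmc1 (0.66, limma adjusted p = 0.0348).

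Fitting replicate number as a block, 206 regions passed between c-Kit+ and Thy1+ cells in place of 104, and 3151, 3705, 4456 and 0 in the other comparisons in the order of the text. Slx4 lost its call with the block (limma adjusted p = 0.0605), and the calls at the 8 genes were the same.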
